A study of Mus musculus with 12 samples.

Results

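Transcripts of 10 genes that mark fibroblasts, or their activated state, were followed in the ventricular wall of mice with and without Sdhaf4 in their muscle cells. The 10 were taken by name from a table of 43686 rows: Pdgfra, Tcf21, Ddr2 and Thy1 as identity genes, Cthrc1, Fap, Meox1, Acta2 and Tagln as activation genes, and Pdgfrb, a gene of mural cells as well as of fibroblasts. Each had 1 row, and all 10 passed the filter on low counts, Cthrc1 mainly through its KO libraries. The 6 control libraries (WT, Sdhaf4fl/fl) were of littermates without Cre whose Sdhaf4 alleles were floxed. Mice of the other 6 libraries (KO, Sdhaf4Ckmm) carried the same floxed alleles together with Ckmm-Cre, which the muscle creatine kinase promoter drives in cardiac and skeletal muscle, so that fibroblasts were not a target of the deletion. Sdhaf4 encodes an assembly factor of succinate dehydrogenase, and the mutants served the study as a model of dilated cardiomyopathy. The labels give the strain as C57BL/6, the age as postnatal month 2 and the mutants as Sdhaf4-/- without the Cre, whereas the study's text gives more than 1 age. The labels do not say that the 6 libraries of a group are separate animals; each library is called a heart below, and the p-values measure the spread between these libraries.

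Cardiac fibroblasts make and turn over the matrix between the myocytes. In the unstressed heart they are recognised by transcripts such as Pdgfra and Tcf21, and on injury a share of them takes on an activated state, with matrix genes and, in myofibroblasts, contractile genes such as Acta2. No transcript in the set belongs to fibroblasts alone: Acta2 and Tagln are abundant in vascular smooth muscle, Pdgfrb in pericytes, and Thy1 also in T cells and neurons. In RNA of a whole tissue, a change in the number of cells of a type and a change in the RNA per cell cannot be told apart.

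Between 23747014 and 27159228 reads were counted in the WT libraries and between 26542930 and 31393393 in the KO libraries. Sdhaf4 itself averaged 25.2 ± 5.80 CPM (reads of the gene per 1000000 reads counted, scaled by edgeR's TMM factors; mean ± SD, n = 6) in WT and 2.40 ± 0.170 in KO (log2 fold change -3.39, SE 0.16, edgeR adjusted p = 1.95e-10). The WT range was 14.3 to 30.3, with WT6 lowest, and no KO heart was above 2.73. WT6 thus held less Sdhaf4 than the other WT hearts, and KO3 and KO6 lay farthest from the rest of their genotype over all rows. For some genes the fit without 1 of these libraries is therefore also given. Cardiomyocyte markers were the most abundant of the cell type lists, at 63515 to 69448 CPM in sum in WT and 48008 to 63986 in KO (sums over a list are scaled by library size alone). Of 10 such markers 6 fell at an edgeR adjusted p under 0.05 (60.0%, against 25.5% of all rows tested). Those of smallest p were Tnni3 (-0.89 on the log2 scale), Pln (-0.79) and Atp2a2 (-0.99), which encode a thin filament subunit, the inhibitor of the calcium pump and the pump. The other 4, named after the values were seen, were not called: Myh6 (-0.20), Ttn (-0.14), Tnnt2 (0.03) and Actc1 (0.24). The part of the 6 falls in the values below, which are shares of each library, was not tested.

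The genotypes were tested against each other over the 17155 rows that passed the filter, with the quasi-likelihood method of edgeR and Benjamini-Hochberg adjustment over all of them. At an adjusted p under 0.05, 6 of the 10 genes were higher in KO (Pdgfra, Tcf21, Thy1, Cthrc1, Meox1 and Pdgfrb), 1 was lower (Acta2) and 3 were not called (Ddr2, Fap and Tagln). Of all rows tested, 25.6% were higher and 25.5% lower by the same rule. By the stricter rule of an adjusted p under 0.005 and a log2 fold change over 1, 2 of the 10 were higher (Cthrc1 and Meox1), against 5.36% of all rows. Both counts include Cthrc1, which passed the filter mainly through the KO libraries, where it is high. In 4 of the 10 (Pdgfra, Tcf21, Meox1 and Pdgfrb) every KO heart was above every WT heart, as in 14.9% of all rows.

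**Figure D1:**
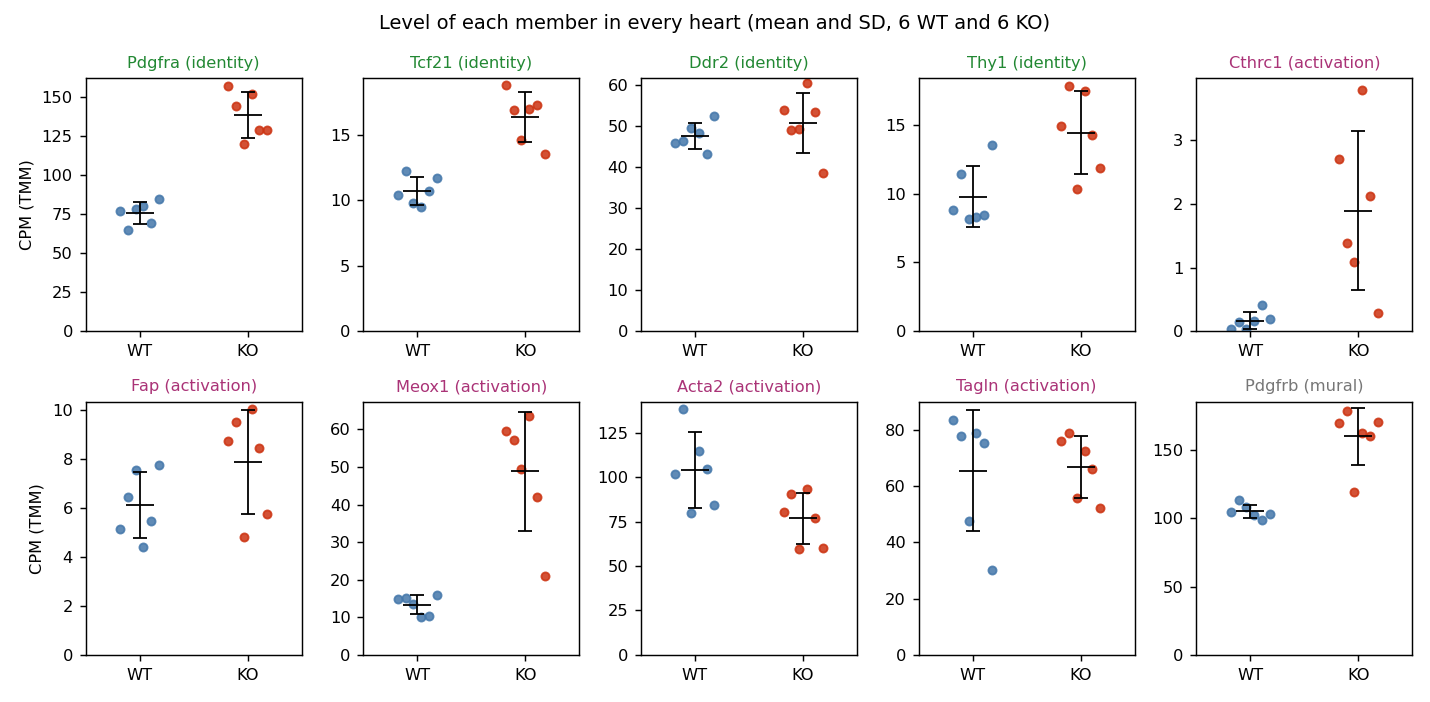
Level of the 10 genes in each heart, in CPM scaled by TMM on linear axes that start at 0. Points are single hearts in order of replicate number, the long bar is the mean and the whiskers are the SD (6 WT, 6 KO); the groups are apart for Pdgfra, Tcf21, Meox1 and Pdgfrb and overlap for the other 6.

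Pdgfra, the receptor of PDGF-A and PDGF-C that marks resident fibroblasts, was the identity gene with the largest change. In WT it ranged from 64.8 CPM through a median of 77.4 to 84.5, and in KO from 119.8 through 136 to 157. The lowest KO heart, KO3, was above the highest WT heart, WT6. Its means were 75.6 ± 7.24 and 138 ± 14.8 CPM (SD, n = 6 each), a log2 fold change of 0.87 (SE 0.08, edgeR adjusted p = 7.48e-08). The 2-sided exact permutation test of the 6 and 6 hearts gave p = 0.00216, the smallest that this number of hearts allows. Leaving out any 1 library moved the log2 fold change between 0.83 and 0.90. The gene lies on chromosome 5 of the C57BL/6NJ assembly, from 78303537 to 78349133 on the plus strand.

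Tcf21 encodes a basic helix-loop-helix factor that the fibroblast lineage of the heart needs to form. Its WT values were 9.50, 10.6 and 12.2 CPM (lowest, median, highest) and its KO values 13.6, 16.9 and 18.8. The groups did not overlap, with KO6 the lowest of the KO hearts. The log2 fold change was 0.61 (SE 0.09, edgeR adjusted p = 3.36e-05; exact permutation p = 0.00216). The gene is on chromosome 10, 21322620 to 21325466, minus strand.

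Thy1, a surface glycoprotein held by a lipid anchor, went from 8.18, 8.63 and 13.5 CPM in WT to 10.3, 14.6 and 17.8 in KO (lowest, median, highest). The ranges overlapped through WT6 and WT2, the highest WT hearts, and KO3 and KO6, the lowest KO hearts. Its log2 fold change was 0.56 (SE 0.16, edgeR adjusted p = 0.00675; exact permutation p = 0.0152), and all 12 fits that left out 1 library called it. The summed T cell markers were at 6.44 to 10.2 CPM in WT and 5.06 to 13.6 in KO, so their ranges overlapped, with 7 of 10 tested, 2 higher (Il7r, 1.71, and Cd8a, 1.25) and 1 lower (Cd247, -0.75); Cd3e, Cd3g and Cd5 had too few counts for the test. Nerve and Schwann cell markers summed to 15.4 to 18.6 CPM in WT and 14.6 to 20.3 in KO, with 5 of 8 tested and 1 lower (Sox10, -1.73, edgeR adjusted p = 0.000411). The next by p, Uchl1 (0.16, adjusted p = 0.168) and Ngfr (0.63, adjusted p = 0.25), were not called, Th and Prph had too few counts and Snap25, a synaptic marker, was at 0 in every library. Over all rows 25.6% were higher and 25.5% lower. The part of T cells and of nerve and Schwann cells in the Thy1 values was not tested. Thy1 lies on chromosome 9, 43769626 to 43774846, plus strand.

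Ddr2, a receptor tyrosine kinase that binds fibrillar collagen, was not called. It measured 43.2, 47.2 and 52.4 CPM in WT and 38.5, 51.3 and 60.5 in KO, and the KO range enclosed the WT range. KO6 was the lowest and KO4 the highest of all 12 hearts. The log2 fold change was 0.09 (SE 0.08, edgeR adjusted p = 0.377; exact permutation p = 0.429), between 0.04 and 0.16 over the fits without 1 library. The largest of these, 0.16, came without KO6, where the edgeR adjusted p of 0.0505 was close to the threshold. Ddr2 lies on chromosome 1, 181474157 to 181627258, minus strand, and shares positions with 1 other row of at most 20 counts.

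Of the activation genes, Cthrc1 had the largest change. This secreted protein with a short collagen-like repeat marks a matrix-producing state of cardiac fibroblasts after injury. The WT libraries held 1, 4, 1, 4, 10 and 5 counts (WT1 to WT6) and the KO libraries 84, 37, 33, 110, 65 and 8 (KO1 to KO6). In 5 KO hearts the gene was above all WT hearts, whereas KO6, at 0.288 CPM, was below WT5, at 0.405 CPM. The means were 0.163 ± 0.134 and 1.89 ± 1.24 CPM (SD, n = 6 each), with a log2 fold change of 3.50 (SE 0.59, edgeR adjusted p = 0.000139; exact permutation p = 0.00433). The fold change ranged from 3.18 to 3.97 over the fits without 1 library and rests on few WT counts. Only KO1 to KO5 and WT5 held 10 counts or more, so the gene passed the filter mainly through the group where it is high. Its p-values are therefore a description. Cthrc1 is on chromosome 15, 38935815 to 38945911, plus strand.

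Meox1, a homeobox transcription factor of activated fibroblasts, rose from 10.2, 14.2 and 15.97 CPM in WT to 20.9, 53.3 and 63.6 in KO (lowest, median, highest). KO6 was again the lowest KO heart and the next, KO5, was at 41.9 CPM. All KO hearts were above all WT hearts. The log2 fold change was 1.87 (SE 0.25, edgeR adjusted p = 5.96e-05; exact permutation p = 0.00216). Without KO6 the log2 fold change was 2.02 (edgeR adjusted p = 5.35e-08). The gene lies on chromosome 11, 108084646 to 108102347, minus strand, beside an overlapping row of at most 7 counts.

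Fap encodes a serine protease on the surface of activated fibroblasts. WT hearts were at 4.41, 5.95 and 7.76 CPM and KO hearts at 4.80, 8.59 and 10.04. Of the KO hearts 4 were above every WT heart, and KO3 and KO6 lay within the WT range. Fap was not called (log2 fold change 0.36, SE 0.19, edgeR adjusted p = 0.119; exact permutation p = 0.147). Without KO3 it was (0.47, edgeR adjusted p = 0.0242), and likewise without both KO3 and WT6 (0.54, edgeR adjusted p = 0.0123). Without KO6 alone it was not called (0.43, edgeR adjusted p = 0.0645). Fap lies on chromosome 2, 64010754 to 64088502, minus strand.

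Acta2, the smooth muscle alpha-actin that defines myofibroblasts and is the main actin of vascular smooth muscle, was the gene of the set that fell. Its values were 80.1, 103 and 138 CPM in WT and 59.4, 78.6 and 93.3 in KO. Of the WT hearts 2 (WT3 and WT6) and of the KO hearts 3 lay in the shared range from 80.1 to 93.3. WT2 and WT4 were the highest, and KO3 and KO6 the lowest. Means were 104 ± 21.2 and 76.8 ± 14.4 CPM (SD, n = 6 each), a log2 fold change of -0.44 (SE 0.15, edgeR adjusted p = 0.0272; exact permutation p = 0.0281). The call was lost without WT2 (-0.34, edgeR adjusted p = 0.0534), WT4 (-0.41, 0.0522), KO3 (-0.38, 0.057) or KO6 (-0.38, 0.0535), and when rows of low count were kept in the fit (-0.44, 0.0622). Acta2 is on chromosome 19, 33921975 to 33936222, minus strand.

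Tagln, or SM22 alpha, an actin-binding protein of smooth muscle and myofibroblasts, differed by less than the spread between hearts. It spanned 30.3, 76.6 and 83.5 CPM in WT and 52.2, 69.4 and 79.0 in KO, and the WT range enclosed the KO range. WT6 was the lowest heart and WT3, at 47.7 CPM, the next. The log2 fold change was 0.03 (SE 0.23, edgeR adjusted p = 0.925; exact permutation p = 0.764), and its sign turned without WT6 (-0.12), WT3 (-0.05), KO1 (-0.01) or KO2 (-0.02). Tagln, on chromosome 9 from 45812374 to 45818808 on the minus strand, overlaps Pcsk7, which had 596 to 1064 counts, and without a stated strand setting the reads of the shared stretch cannot be assigned with certainty.

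Pdgfrb, the receptor of PDGF-B that pericytes and fibroblasts carry, was higher in every KO heart than in any WT heart. WT values were 99.2, 104 and 113 CPM and KO values 119.7, 166 and 178. KO3 was the lowest KO heart, and the other 5 lay between 160.4 and 178 CPM. The log2 fold change was 0.61 (SE 0.08, edgeR adjusted p = 5.04e-06; exact permutation p = 0.00216), between 0.58 and 0.67 over the fits without 1 library. The gene is on chromosome 18, 62553967 to 62595042, plus strand.

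**Figure D2:**
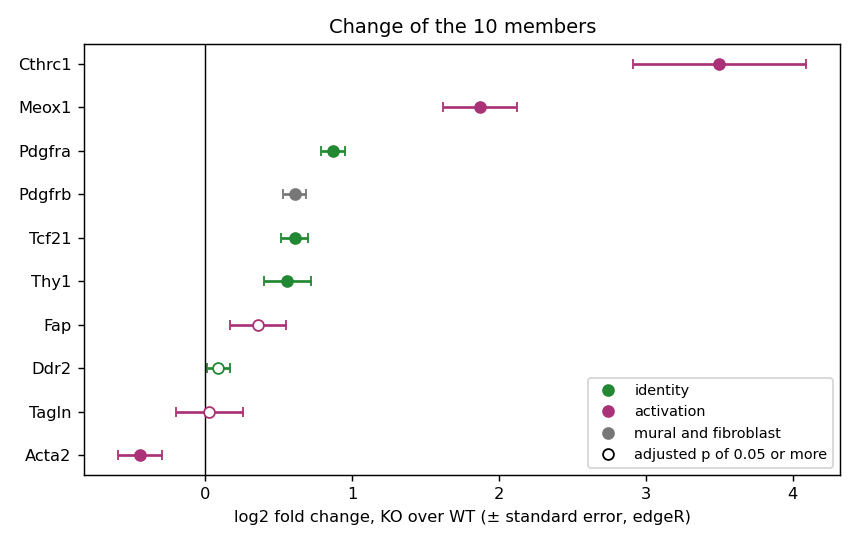
Log2 fold change of the 10 genes, KO over WT, with the standard error from edgeR as bars. Filled points have an adjusted p under 0.05 and open points do not; Cthrc1 (3.50) and Meox1 (1.87) lie far to the right, and Acta2 (-0.44) is the filled point left of 0.

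Identity and activation genes were then set side by side. The 4 identity genes had log2 fold changes from 0.09 to 0.87, a range of 0.78, with a median of 0.58. The 5 activation genes ran from -0.44 to 3.50, a range of 3.94, with a median of 0.36. The upper end is Cthrc1, which passed the filter mainly through the KO libraries, and Meox1 (1.87) came next. Under the filter of at least 1 CPM in 6 libraries, which left Cthrc1 out, the activation median was 0.2 and the identity median 0.59. Cthrc1 is also in the medians per heart below. The median of all rows tested was 0.00. Taking in each heart the median difference from the WT mean, the identity genes were at -0.13 to 0.15 in WT and 0.28 to 0.78 in KO. For the activation genes the same medians were -0.35 to 0.28 in WT and -0.15 to 0.73 in KO, so the groups overlapped. The activation genes parted into Cthrc1 and Meox1, which rose, Fap and Tagln, which were not called, and Acta2, which fell.

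**Figure D3:**
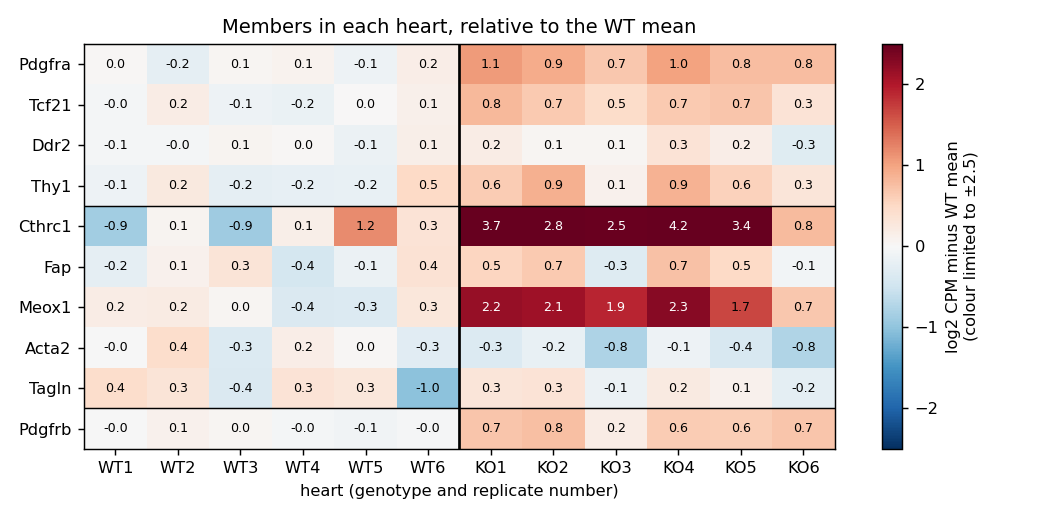
Difference of each gene from its WT mean in every heart, in log2 CPM, with the colour limited to 2.5 on either side of 0 and the value printed in each cell. Identity genes are in the top block, activation genes in the middle and Pdgfrb below; the KO columns are red for Pdgfra, Tcf21, Thy1, Cthrc1, Meox1 and Pdgfrb, palest in KO3 or KO6, and blue for Acta2.

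The KO hearts did not rank alike, but the low end was shared by few of them. KO3 was the lowest KO heart for 5 of the 10 genes (Pdgfra, Thy1, Fap, Acta2 and Pdgfrb) and KO6 for the other 5 (Tcf21, Ddr2, Cthrc1, Meox1 and Tagln). KO4 was the highest for 5. Both KO3 and KO6 were also the libraries farthest from their genotype over all rows, and the part of this in the members' order was not tested.

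The other 9 genes were also set relative to Pdgfra in the same heart, as a description. There were 59.8 to 71.3 counts of Ddr2 per 100 counts of Pdgfra in WT, around a median of 62.1, and 29.8 to 41.5 in KO, around 37.0. For Acta2 the ratio was 99.9 to 213 in WT, around 138, and 46.9 to 62.8 in KO, around 55.5. Neither ratio overlapped between the genotypes, and the share of all rows for which this holds was not computed. Meox1 went the other way, with medians of 18.1 (12.7 to 23.3) and 38.9 (16.2 to 41.9), with KO6 inside the WT range. Cthrc1 had medians of 0.211 (0.0504 to 0.582) in WT and 1.31 (0.224 to 2.49) in KO. Tcf21 had medians of 13.7 and 11.9, Thy1 of 11.8 and 10.3, and Fap of 8.52 and 6.06, all with overlap. The medians of Tagln were 103 and 48.1, with overlap through WT6, and those of Pdgfrb 137 and 116, also with overlap. These ratios carry no test, since Pdgfra is itself a member that rose, and any gene that did not change falls relative to it.

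**Figure D4:**
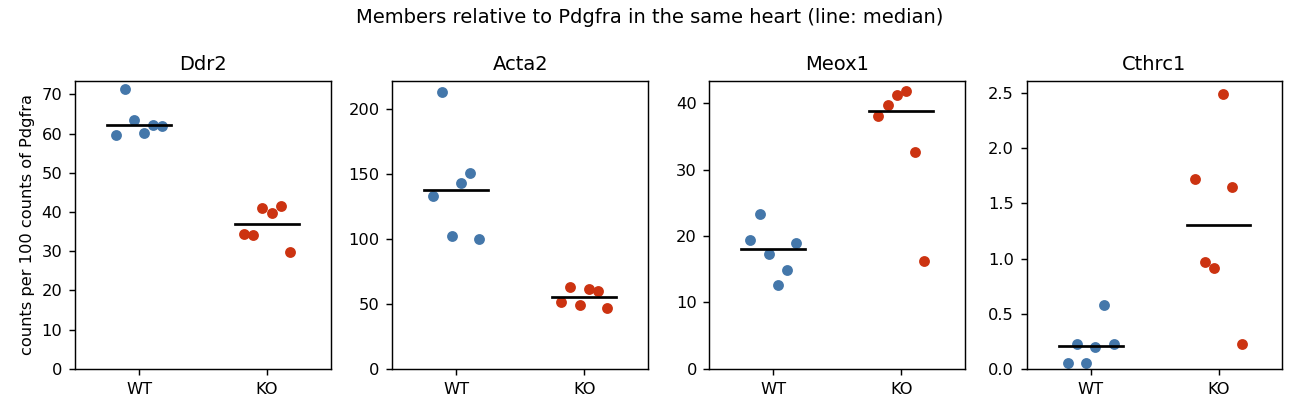
Counts of Ddr2, Acta2, Meox1 and Cthrc1 per 100 counts of Pdgfra in the same heart, on linear axes that start at 0, with single hearts as points and the median as a line. For Ddr2 and Acta2 all KO hearts are below all WT hearts, and for Meox1 and Cthrc1 the KO heart at the bottom is KO6.

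Levels of different genes were compared per length, in the authors' FPKM. In WT the order of means was Acta2 (58.4 ± 12.3, SD), Tagln (41.2 ± 13.4), Pdgfra (27.5 ± 2.78), Pdgfrb (19.8 ± 1.18), Ddr2 (11.3 ± 0.911), Tcf21 (8.76 ± 1.02), Meox1 (5.99 ± 1.22), Thy1 (5.54 ± 1.37), Fap (3.27 ± 0.757) and Cthrc1 (0.196 ± 0.157). The ranges of Acta2 and Tagln, Tagln and Pdgfra, Ddr2 and Tcf21, and Meox1 and Thy1 overlapped, and those of the other neighbours in the order did not. In KO the order began with Pdgfra (50.5 ± 6.49), followed by Acta2 (43.3 ± 9.06), Tagln (42.4 ± 7.79), Pdgfrb (30.3 ± 4.34) and Meox1 (22.0 ± 7.37). Tcf21 (13.4 ± 1.85), Ddr2 (12.04 ± 1.98), Thy1 (8.20 ± 1.87), Fap (4.23 ± 1.22) and Cthrc1 (2.30 ± 1.55) came after. In KO the ranges of all neighbours overlapped except those of Thy1 and Fap. Meox1 moved from the seventh to the fifth place and Ddr2 from the fifth to the seventh.

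Acta2 and Tagln are classic targets of serum response factor (SRF), which binds the CArG box and acts with myocardin and the related factors Mrtfa and Mrtfb. Promoters of 250 bases before and 50 after the annotated start, from RefSeq on GRCm38.p6, were at hand for 4 of the 10 genes (Pdgfra, Tcf21, Ddr2 and Acta2), and were searched for CC and GG around 6 letters of which at least 5 are A or T. This pattern reads alike on both strands. Acta2 held 2 such stretches, from 84 to 75 and from 34 to 25 bases before the annotated start, and the other 3 promoters held none. Of 32851 promoters in the table, 9.98% held at least 1 and 0.822% at least 2. The pattern was not a common trait of smooth muscle genes. Of 13 promoters of the other smooth muscle and pericyte genes listed below, 0 held it. It was in 4 of 11 promoters of the cardiomyocyte markers and 3 of 7 of the endothelial markers. The Acta2 promoter (chr19:34255324-34255623, minus strand) and, for contrast, that of Pdgfra (chr5:75152001-75152300, plus strand) are shown 5′ to 3′ with the matches in capitals. A match is a run of letters and not a measured binding site.
Acta2: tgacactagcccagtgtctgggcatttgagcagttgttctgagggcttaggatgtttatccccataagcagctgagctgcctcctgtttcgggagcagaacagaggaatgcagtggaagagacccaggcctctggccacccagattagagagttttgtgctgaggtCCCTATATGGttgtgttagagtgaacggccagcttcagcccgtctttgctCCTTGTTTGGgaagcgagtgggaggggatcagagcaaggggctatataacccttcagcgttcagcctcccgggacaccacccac
Pdgfra: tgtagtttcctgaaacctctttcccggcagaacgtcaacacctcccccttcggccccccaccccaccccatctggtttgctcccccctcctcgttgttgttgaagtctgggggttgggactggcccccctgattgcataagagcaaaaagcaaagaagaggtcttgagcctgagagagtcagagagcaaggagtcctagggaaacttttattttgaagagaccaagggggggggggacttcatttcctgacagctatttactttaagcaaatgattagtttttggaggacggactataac

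Transcripts of the factors around these genes rose in KO. Of 8 PDGF ligands and SRF cofactors all 8 were higher (median log2 fold change 0.39), against 25.6% of all rows, with Myocd nearest to the threshold (edgeR adjusted p = 0.0461). The count was 7 to 8 over the fits without 1 library and 7 with unannotated loci left out. Pdgfc, a ligand of the receptor that Pdgfra encodes, was at 1.77 to 4.33 CPM in WT and 5.69 to 13.0 in KO (1.44, SE 0.24, edgeR adjusted p = 0.000116). Pdgfb, the ligand of Pdgfrb, was at 52.2 to 64.7 and 68.4 to 89.9 CPM (0.47, SE 0.07, edgeR adjusted p = 2.97e-05). Mrtfb, listed under its older name Mkl2, was at 39.8 to 46.7 and 50.3 to 70.7 CPM (0.50, SE 0.08, edgeR adjusted p = 8.72e-05). These 3 had the smallest p of the list, and in each KO was above WT without overlap, as in 14.9% of all rows. The rest of the list is named after the values were seen. Pdgfa (0.31, SE 0.08, edgeR adjusted p = 0.00252) was also above WT in KO without overlap. In Pdgfd, Srf, Mrtfa and Myocd the genotypes overlapped. Acta2 was lower and Tagln not called in the same hearts.

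Whether the contractile genes varied together among hearts of 1 genotype was examined in 8 relations on log2 CPM (4 gene pairs, each within WT and within KO). Acta2 and Myh11, the smooth muscle myosin, had Pearson's r = 0.96 in KO (exact permutation p = 0.0111, adjusted over the 8 p = 0.0888) and Spearman's rho = 0.89 (exact permutation p = 0.0333, adjusted p = 0.266). Without KO3 and KO6, the hearts farthest from the median of Acta2, r was 0.91. Acta2 and Tagln had r = 0.93 in KO (exact permutation p = 0.0333, adjusted p = 0.133) and rho = 0.77 (exact permutation p = 0.103), and r fell to 0.55 without the same hearts, so this relation rests on them. None of the 8 passed the adjustment over the 8, for which 6 hearts allow no p below 0.00278. In WT the corresponding r were 0.74 for Acta2 with Myh11 (0.84 without WT2 and WT3) and 0.74 for Acta2 with Tagln (0.90 without them). Acta2 with Cthrc1 gave r = 0.76 in KO, which fell to 0.14 without KO3 and KO6, and 0.28 in WT, which was -0.02 without WT2 and WT3. Pdgfra with Tcf21 gave 0.74 in KO (0.49 without KO1 and KO3) and -0.44 in WT, where the sign turned without WT2 and WT5 (0.66).

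Smooth muscle and pericyte genes other than the members showed no common direction. Of 18 tested, 6 were higher (33.3%, near the 25.6% of all rows) and 2 lower (11.1%, under the 25.5% of all rows). Their median log2 fold change was 0.04, and their summed level was 1590 to 1892 CPM in WT and 1689 to 2226 in KO. Those with the smallest p were Smtn (smoothelin, 0.38, edgeR adjusted p = 7.37e-05), Rgs4 (a regulator of G protein signalling in pericytes, 0.55, adjusted p = 8.61e-05) and Mcam (the adhesion molecule CD146, 0.60, adjusted p = 0.000765). Chosen after the values were seen, the 2 lower genes were Cnn1 (calponin, -1.10, adjusted p = 0.0207) and Vtn (vitronectin, -0.47, adjusted p = 0.0119), and Myh11 was not called (-0.34, adjusted p = 0.177). The part of smooth muscle in the Acta2 and Tagln values, and of pericytes in those of Pdgfrb, was not tested.

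Other transcripts of resident fibroblasts moved in both directions. Of 20 tested, 9 were higher (45.0%, against 25.6% of all rows) and 4 lower (20.0%, under the 25.5% of all rows), with a median of 0.18. Their summed level overlapped between WT (2429 to 3068 CPM) and KO (2624 to 3089 CPM). Clec3b (tetranectin) fell from 56.1 to 22.2 CPM in mean (-1.34, SE 0.10, edgeR adjusted p = 1.17e-08). Scara5, a ferritin receptor, fell from 54.1 to 22.2 CPM (-1.29, SE 0.12, edgeR adjusted p = 5.87e-07). Pcolce, which enhances the processing of procollagen, rose from 34.1 to 87.7 CPM (1.36, SE 0.12, edgeR adjusted p = 3.44e-07). These 3 had the smallest p of the list, and in each the genotypes were apart. Pdgfra and Tcf21 rose in the same hearts in which Clec3b and Scara5, which mark resident fibroblasts as well, fell.

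Among other genes of fibroblast activation, 15 of 17 tested were higher (88.2%, against 25.6% of all rows) and 1 lower (5.88%, against 25.5%). Their median log2 fold change was 2.17. Their sum was 569 to 894 CPM in WT and 1489 to 3941 in KO. Comp, a matrix protein of cartilage and scar, rose from 2.53 to 41.0 CPM in mean (4.02, SE 0.16, edgeR adjusted p = 9.72e-11). Ltbp2, a microfibril protein related to the latent TGF-beta binding proteins, rose from 1.74 to 88.5 CPM (5.67, SE 0.20, edgeR adjusted p = 2.28e-10). Lox, the enzyme that crosslinks collagen, rose from 23.4 to 105.4 CPM (2.17, SE 0.12, edgeR adjusted p = 2.49e-09). Chosen after the values were seen, Lrrc15, which marks myofibroblasts in other tissues, was the gene that fell (-3.42, SE 0.60, edgeR adjusted p = 0.000194), from 1.92 to 0.173 CPM, and Runx1 was not called (0.21, adjusted p = 0.429). Chad and Cilp2 had too few counts, and Cilp was not analysed here. The earlier results of these data were known when these lists were drawn up, so their counts are a description.

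**Figure D5:**
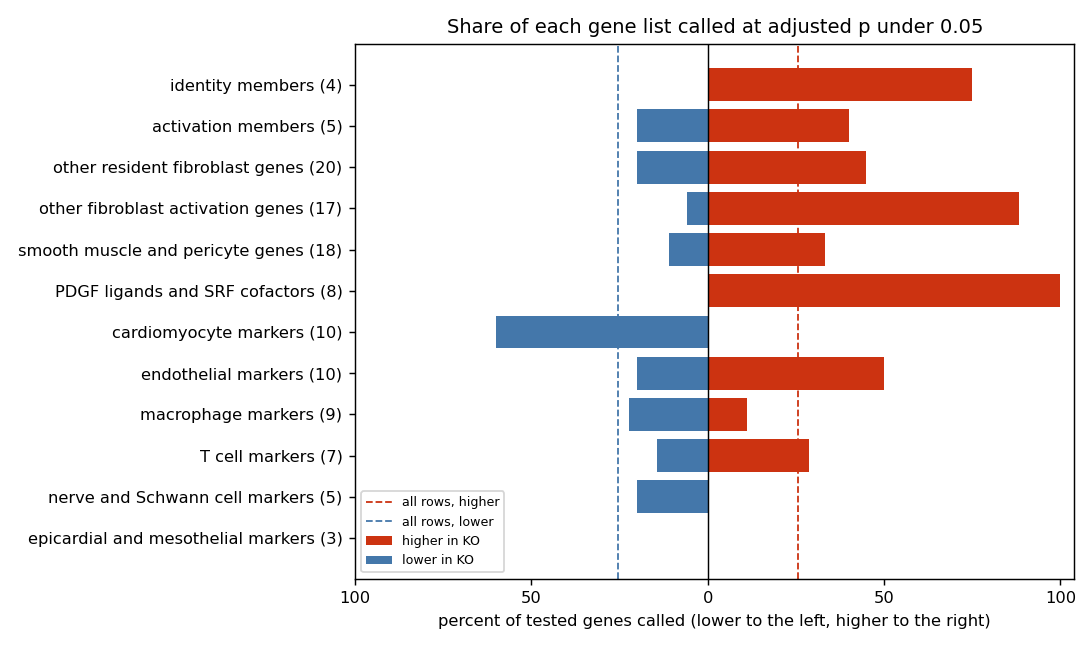
Share of the tested genes of each list called higher (red, to the right) or lower (blue, to the left) in KO at an edgeR adjusted p under 0.05, in percent, with the number tested in brackets. Dashed lines mark the share of all rows (25.6% higher, 25.5% lower); other fibroblast activation genes and the PDGF ligands with SRF cofactors reach 88.2% and the full length of the axis, and cardiomyocyte markers 60.0% lower.

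The rows most like 4 of the members across hearts were ranked by Pearson's r of log2 CPM after the mean of each genotype was subtracted, over all 12 hearts, which differ in depth and in the level of cardiomyocyte markers. They were 9530068E07Rik (r = 0.94), Nlk (0.92) and Lgals3 (0.91) for Pdgfra, and Add3 (0.93), Tmem45a (0.90) and Olfml2b (0.90) for Cthrc1. For Acta2 they were Pigm (0.92), Myl9 (0.90), a myosin light chain of smooth muscle, and Srgap3 (0.89), and for Pdgfrb Ptprcap (0.93), Rufy3 (0.91) and Nol3 (0.90). No other member was among the 3 nearest rows of these 4: the highest r with another member was 0.56 for Pdgfra (with Ddr2), 0.68 for Cthrc1 (with Tcf21 and with Ddr2), 0.74 for Acta2 (with Tagln) and 0.62 for Pdgfrb (with Fap). The nearest rows were picked as the highest r over all tested rows with a gene name. Part of the size of these r comes from that picking, and they were not tested.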

How the data were processed

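Poly-T purified mRNA of 12 ventricular samples was sequenced. The authors deposited 1 table with raw counts per gene from HTSeq 0.9.1 and FPKM, which the authors computed per gene length and library size. The submitters' processing notes name HISAT2 2.0.5 and mm10 with no role, whereas the gene identifiers, and so the coordinates given for genes, are of the C57BL/6NJ assembly. A strand setting is not given in the sources used here. The authors' fold changes, p-values and group means were not used. Counting error limits values that rest on few counts.

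Of 43686 rows, 27883 had at least 1 count and 2590 were unannotated loci. The counts were fitted with edgeR 4.0.16 under R 4.3.3, using TMM factors and the robust quasi-likelihood test on the 17155 rows kept by filterByExpr, with Benjamini-Hochberg adjustment. Log2 CPM used a prior count of 2. Single genes were also compared by two-sided exact permutation of the hearts. No pair of libraries of the same genotype agreed within sampling noise (6.99 to 48.6 as chi-square per degree of freedom), so each counted as 1 replicate. The test was checked on simulated counts.

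The members, lists and tests were chosen with earlier results of these data known. The genes named are the members, Sdhaf4, the 3 genes of smallest p in each list, the listed genes without a test, and the 3 rows most like 4 members; others are marked in the text. Of the 124 listed genes beside the members 3 were not analysed here (Cilp, Lyz2 and Muc16), and some genes are not reported here. Alternatives were DESeq2 1.42.0 size factors and test, library size only, limma 3.58.1 voom, other filters (none, or at least 1 CPM in 6 libraries), unannotated loci left out, a replicate block, and each library left out.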

Additional observations from a re-analysis of the deposited data

Results flagged for a closer look

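Pdgfrb in the KO hearts was the flagged level, with KO3 at 119.7 CPM while the other 5 hearts were between 160.4 and 178 CPM. The gap from KO3 to its nearest neighbour was 0.693 of the range of the group, above the critical value of Dixon's test for 6 samples. Each of the 10 genes was examined in both genotypes, and chance flags about 1 in 20 groups. KO3 was also the library farthest from its genotype over all rows, and its part in the value was not tested. Without KO3 the log2 fold change of Pdgfrb was 0.67.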

How the results depend on the processing

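Of 359 values recomputed under alternatives that left all libraries in or took out the same pair, 345 kept their direction and side of the threshold or, for counts, stayed near the reported count, and so did 449 of 480 in the fits without 1 library. With no filter, no gene of the set was called lower (0 by edgeR, 1 at an unadjusted p under 0.05, Acta2); on the rows that passed the filter, DESeq2 and limma-voom called Acta2. Under a filter of at least 1 CPM in 6 libraries, Cthrc1 was not tested, and 1 gene was higher by the stricter rule. The same filter left 0 other activation genes lower, 0 T cell markers higher and 0 nerve markers lower, also 0 in each at an unadjusted p under 0.05, through fewer genes tested. Macrophage markers gave 1 lower with library size only and 2 higher with DESeq2. Without WT6 and KO3, a choice made after the data had been seen, 1 macrophage marker was lower, 4 T cell markers were higher, Fap was called and Tagln was at -0.08. The causes of the other changes were not tested. Same-numbered libraries did not deviate together (r from -0.162 to 0.024, with 1 of 6 WT libraries closest to its own number), so the numbers do not pair the hearts; with the replicate block 4 smooth muscle genes were lower and 3 macrophage markers higher, and the calls of the 10 genes did not change. Over the fits without 1 library, 6 to 7 of the 10 genes were higher and 0 to 1 lower, Tagln ran from -0.12 to 0.10, 2 to 4 smooth muscle genes were lower, 1 to 2 macrophage markers higher and 1 to 2 lower, 1 to 4 T cell markers higher and 0 to 1 epicardial markers higher. Depth limits Cthrc1 in WT, at 1 to 10 counts.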

Other observations

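Endothelial transcripts moved in both directions. Of 10 markers tested, 5 were higher and 2 lower, against 25.6% higher and 25.5% lower of all rows. The markers had a median log2 fold change of 0.16 and a summed level of 3444 to 3889 CPM in WT and 3551 to 4260 in KO. Ptprb, a phosphatase that acts on the angiopoietin receptor, rose from 326 to 591 CPM in mean (0.86, edgeR adjusted p = 1.5e-07), whereas Tek, which encodes that receptor, fell from 144 to 116 CPM (-0.30, adjusted p = 7.28e-05). Esam, a junction protein, rose by 0.42 (adjusted p = 0.000199).

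Macrophage markers gave 1 higher and 2 lower of 9 tested (11.1% and 22.2%, against 25.6% and 25.5% of all rows). Their median was 0.13, at 248 to 354 CPM in sum in WT and 254 to 429 in KO. Mrc1, the mannose receptor of resident macrophages, rose (0.43, edgeR adjusted p = 0.000344), and Adgre1 (F4/80, -0.62, adjusted p = 0.00518) and Csf1r (-0.26, adjusted p = 0.0296) fell. Lyz2 was not analysed here. Of 10 epicardial and mesothelial markers, 3 were tested and edgeR, DESeq2 and limma-voom called 0. At an unadjusted p under 0.05, 1 of them was higher by edgeR, which was Krt18 (1.16, edgeR adjusted p = 0.085), and 2 were by DESeq2 and 0 by limma-voom. Aldh1a2, which makes retinoic acid, was at 0.49 (adjusted p = 0.0895) and Wt1 at 0.07 (adjusted p = 0.8). Upk3b, Msln, Krt19, Upk1b, Lrrn4 and Krt8 had too few counts for the test, and Muc16 was not analysed here.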
